A study of Homo sapiens with 6 samples.

Results

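The genes described here were those of the enzymes that add methyl groups to lysines and arginines of histones and other proteins, or take them off lysines. They were chosen by name: every listed gene whose symbol begins with KMT, KDM, SETD, SMYD, NSD or PRMT and a digit, together with EZH1, EZH2, SUV39H1, SUV39H2, SETDB1, SETDB2, DOT1L and ASH1L. Of 68 names that fit, 5 antisense genes and 1 gene of chromosome Y were left out. The remaining 62 were members, of 38648 listed genes and gene copies. They comprised 59 enzyme genes and 3 divergent transcripts (KDM7A-DT, KDM2B-DT and PRMT5-DT), noncoding RNAs that start near an enzyme gene and run the other way.

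The libraries came from HK-2, an immortalized line of epithelial cells from the proximal tubule of the human kidney. The cells carried a control lentivirus (IR+NC-LV, n = 3) or a lentivirus that overexpresses PRDM16 (IR+PR-LV, n = 3), were kept under puromycin to remove cells without virus, and all received 8 Gy of X-rays before RNA was taken on day 7. No library from cells without irradiation was analysed here, so every value describes irradiated cells. The labels do not say whether the libraries of a group were separate cultures, so the p-values measure the spread between these libraries, which may be technical.

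Lysine methylation of histones marks genes and regions. H3K4 marks promoters and enhancers, H3K36 and H3K79 the bodies of transcribed genes, and H3K9, H3K27 and H4K20 silent or compacted chromatin. Writers (methyltransferases with a SET domain, DOT1L and the PRMT family) take the methyl group from S-adenosylmethionine, while erasers are flavin enzymes (KDM1A, KDM1B) or JmjC oxygenases that need iron and 2-oxoglutarate. PRDM16 itself carries a PR domain, a relative of the SET domain, and works as a transcriptional regulator.

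PRDM16 was the check of the labels. Its counts were 2, 0 and 1 in IR+NC-LV and 14, 10 and 8 in IR+PR-LV, so the groups did not overlap (two-sided exact permutation p = 0.1 on CPM, counts scaled to the library total, the smallest that 3 against 3 libraries can give). The controls held 3 counts together, under the limit of detection in each library. The ratio of the summed counts per total was 8.51, with an exact 95% interval of 2.66 to 43.4 that covers counting error only. Its counts were too low for the filter. Without a filter, the log2 fold change was 3.03 ± 0.70 (SE, edgeR adjusted p = 0.00872). The call was lost with the replicate block (adjusted p = 0.0567), with GC and length trend removed (0.0897), after thinning to the smallest library (0.0536) and without IR+NC-LV replicate 2 (2.35, adjusted p = 0.054), and DESeq2 gave no adjusted p. The total count ranged from 13407074 in IR+NC-LV replicate 3 to 28540041 in IR+PR-LV replicate 2. IR+NC-LV replicate 3 and IR+PR-LV replicate 1 stood apart from the other libraries of their groups, as described with the GC content of the members, and values without them are given beside the results that they moved most. Of 10 proximal tubule markers, 3 (PAX8, GGT1 and AQP1) reached a mean of 1 TPM (a read count scaled by gene length and library total), whereas the defining markers LRP2, CUBN and HNF4A lay between 0 and 0.407 TPM. Of the other lists, 4 of 5 epithelial, 1 of 4 fibroblast, 0 of 3 endothelial and 1 of 3 leukocyte markers reached that mean. The leukocyte list summed to 181 to 199 TPM in IR+NC-LV and to 154 to 169 TPM in IR+PR-LV, nearly all of it CD68, a lysosomal protein that other cell types also make, with PTPRC and CD3E at no more than 0.142 TPM. The part of these differences in the results was not tested.

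Promoters of KDM1A, KDM6A and KDM8, whose values are described in detail, are shown beside that of SMYD1, which was silent. Each is 200 bases on the plus strand from the RefSeq promoter table (GRCh38.p14), upstream of the annotated exons of the gene, with the dinucleotide CG in capitals (the motif reads the same on both strands). The windows are chr1:23019218-23019417 for KDM1A, chrX:44872938-44873137 for KDM6A, chr16:27203276-27203475 for KDM8 and chr2:88067575-88067774 for SMYD1.
KDM1A: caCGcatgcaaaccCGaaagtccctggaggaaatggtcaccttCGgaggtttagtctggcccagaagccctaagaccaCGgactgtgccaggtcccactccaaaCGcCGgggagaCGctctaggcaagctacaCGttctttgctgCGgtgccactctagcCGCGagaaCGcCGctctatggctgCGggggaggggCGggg
KDM6A: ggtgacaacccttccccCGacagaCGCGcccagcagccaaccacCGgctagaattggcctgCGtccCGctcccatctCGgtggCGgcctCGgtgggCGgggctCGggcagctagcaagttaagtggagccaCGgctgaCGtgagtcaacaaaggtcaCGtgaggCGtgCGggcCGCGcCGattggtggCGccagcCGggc
KDM8: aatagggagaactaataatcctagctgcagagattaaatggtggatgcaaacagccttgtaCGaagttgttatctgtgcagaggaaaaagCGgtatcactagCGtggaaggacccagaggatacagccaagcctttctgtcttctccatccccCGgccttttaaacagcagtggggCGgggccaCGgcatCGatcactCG
SMYD1: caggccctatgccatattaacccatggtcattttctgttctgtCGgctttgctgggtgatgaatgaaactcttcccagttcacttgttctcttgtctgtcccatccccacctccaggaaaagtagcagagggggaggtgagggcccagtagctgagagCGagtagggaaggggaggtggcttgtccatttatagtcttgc
In the deposited gene coordinates (hg38, plus strand), KDM1A spans chr1:23019443-23083691, KDM6A chrX:44873182-45112779, KDM8 chr16:27203486-27222305 and SMYD1 chr2:88067825-88113384. The printed stretches held 15 CG for KDM1A, 21 for KDM6A, 8 for KDM8 and 2 for SMYD1. Over the whole 300-base window of the table, which runs 50 bases past the start, the median was 30 CG among the 53 expressed enzyme genes with a promoter in the table, and 51 of them (96.2%) held 15 or more, compared with 48.8% of all 27305 promoters (median 14). The exceptions were NSD1 and SUV39H1, with 7 each. The 27305 promoters include those of genes with too few counts to be tested, so the 2 shares are of unlike sets. The share among all tested genes was not analysed here. The silent members PRMT8 and SMYD1 held 1 and 4. The promoters of NSD3, SETD1B, DOT1L and KDM4E were not analysed here.

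Levels are given first, on the TPM scale, which divides by gene length and so allows genes to be compared. The length is that of the annotated exons, which can differ from the transcripts that the cells make, so the order depends on the annotation. In IR+NC-LV, for instance, PRMT2 and PRMT5 had similar means of 109.8 and 110.5 CPM. With 11957 and 2408 exon bases, these became 30.4 and 152 TPM. Of the 59 enzyme genes, 56 had enough counts to be tested, 4 of them above 100 TPM, 42 between 10 and 100 TPM and 10 between 1 and 10 TPM. The median of the 56 was 27.2 TPM, compared with 16.3 TPM over the 15340 genes tested. KDM4E, a KDM4 paralog, had no count in any library, which allows up to 0.224 CPM in the shallowest one (3 counts). SMYD1, the SMYD enzyme of heart and skeletal muscle, had 1 count in IR+NC-LV replicate 1, and PRMT8, an arginine methyltransferase of the brain, had 1 in IR+PR-LV replicate 1. Each was under its limit of detection in every library. Limits of this kind cover counting error only.

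PRMT1, the main enzyme of asymmetric arginine dimethylation, had the highest level of the members. It measured 395, 397 and 375 TPM in IR+NC-LV and 415, 421 and 381 TPM in IR+PR-LV, and its lowest library lay above the highest library of every other member. KDM1A followed with a mean of 162 TPM over the 6 libraries, then PRMT5, the main enzyme of symmetric arginine dimethylation, with 151 TPM, and SMYD2, which methylates p53 and other proteins outside chromatin, with 135 TPM. The ranges of KDM1A and PRMT5 overlapped, and so did those of PRMT5 and SMYD2, although PRMT5 was the higher in 6 of 6 libraries. KMT5A, which places the first methyl group on H4K20, came next with 91.5 TPM, and its range did not reach that of SMYD2. At the other end, KDM8 had 2.24 TPM, KDM4D 3.18 TPM and SETDB2 3.23 TPM. SMYD2 and PRMT5 share 19.7% and 26.6% of their exon bases with a gene on the opposite strand, and without a known strand setting such reads cannot be told apart.

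Sums over the members of each role were compared next. Each gene was placed in a single role, so further marks that some of these enzymes act on were not counted. The summed level of the H3K4 methyltransferases was 115 ± 13.8 TPM (SD, n = 3) in IR+NC-LV and 113 ± 16.04 TPM in IR+PR-LV, spread over 6 genes between 13.9 TPM (SETD1A) and 33.8 TPM (KMT2A). The H3K4 demethylases summed to 339 ± 28.0 and 340 ± 9.37 TPM, with KDM1A the largest. Arginine methyltransferases summed to 664 ± 4.49 and 675 ± 21.6 TPM, of which PRMT1 and PRMT5 held most. The H3K27 demethylases were the smallest sum, at 45.7 ± 7.39 TPM in IR+NC-LV and 37.2 ± 1.03 TPM in IR+PR-LV. Their libraries did not overlap (40.1 to 54.1 TPM against 36.04 to 38.03 TPM), the only such case among the roles. Of all single genes tested, 17.0% did not overlap (on CPM). The sum held 2 genes, and IR+NC-LV replicate 3 was its highest library, at 54.1 TPM beside 42.9 and 40.1 TPM in the other controls. All enzyme genes together gave 2310 ± 125 TPM and 2291 ± 52.6 TPM, and for this total the libraries of the groups overlapped.

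Setting IR+PR-LV beside IR+NC-LV asked whether raising PRDM16 in irradiated cells changed the expression of these enzymes. The counted PRDM16 RNA stayed low in IR+PR-LV, at 0.308, 0.131 and 0.163 TPM. Whether reads from the virus were fully counted at the annotated gene is not known, so these values do not give the PRDM16 dose. The paper measured PRDM16 protein in HK-2 cells with either virus by western blot, which was not analysed here. The comparison holds only for the level reached in these cells. No member passed the threshold. With edgeR's quasi-likelihood test over all genes, 0 of 56 enzyme genes had an adjusted p under 0.05, against 10 of 15340 genes (0.0652%, with 0.0196% higher and 0.0456% lower), and the smallest adjusted p among them was 0.324 (KDM1A). At an unadjusted p under 0.05, 4 members were called (7.14%), 1 higher and 3 lower, against 10.5% of all genes (4.55% higher and 5.97% lower). DESeq2, run without that filter, also called 0 members at an adjusted p under 0.05, against 1.13% of the 14851 genes with an adjusted p. At an unadjusted p under 0.05 it called 3 of 58 members (5.17%), against 4.71% of 28825 genes. The libraries of the groups did not overlap for 9 members (16.1%, 4 higher and 5 lower), against 17.0% of all genes (7.49% higher and 9.53% lower). These shares lay near or below those of all genes.

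The sizes of the differences were small. Their intervals measure the spread between these libraries, which may be technical. The log2 fold changes of the 56 ran from -0.54 (KDM8) to 0.24 (KMT5C), with a median of -0.0114 beside 0.00444 for all genes, and 26 were above 0 and 30 below. KMT5C measured 14.3 CPM in IR+PR-LV replicate 1, beside 9.20 to 10.75 CPM in all other libraries. The 95% interval lay within 0.5 of 0 on the log2 scale for 51 of 56 members, and its half-width had a median of 0.187. Over all genes tested, the interval lay within 0.5 of 0 for 10235 of 15340, with a median half-width of 0.247. Since the libraries are of bulk RNA, fewer cells of a kind and less RNA per cell cannot be told apart in any of these values.

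**Figure D1:**
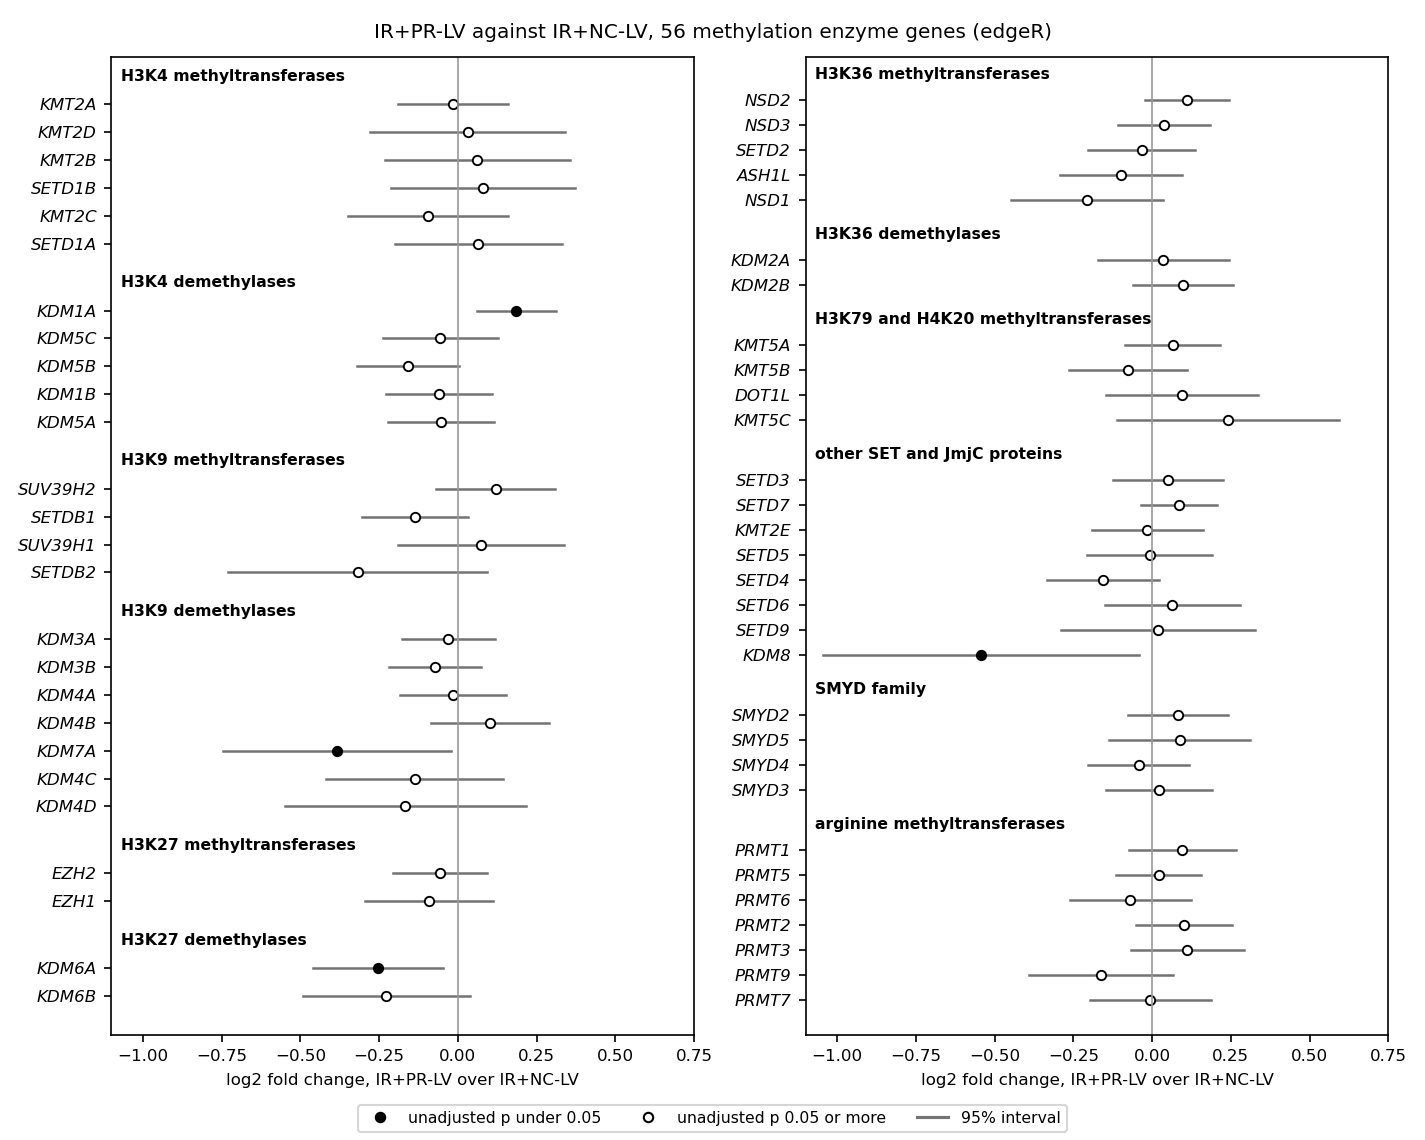
Log2 fold change of IR+PR-LV over IR+NC-LV for each tested enzyme gene, by role, with its 95% interval from edgeR (filled points have an unadjusted p under 0.05). The 4 filled points are KDM1A to the right of 0 and KDM6A, KDM7A and KDM8 to the left, and no gene had an adjusted p under 0.05.

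Among the erasers of H3K4, KDM1A, also known as LSD1, removes methyl groups in the CoREST complex with HDAC1 and HDAC2. It measured 183, 175 and 181 CPM in IR+NC-LV and 209, 197 and 206 CPM in IR+PR-LV (TMM-normalized). All 3 IR+PR-LV libraries were above the highest control. The log2 fold change was 0.19 ± 0.06 (SE), with an edgeR unadjusted p of 0.00842 and an adjusted p of 0.324. It stayed between 0.16 and 0.21 with each library left out in turn, and the unadjusted p was under 0.05 in 6 of 6 such fits. In a fit that removed the trends with GC content and annotated exon length within each library, the edgeR adjusted p was 0.0968, still over the threshold.

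KDM5B, a JmjC demethylase of H3K4 known for its part in silencing cell cycle genes, measured 148, 142 and 168 CPM in IR+NC-LV and 138, 136 and 136 CPM in IR+PR-LV. The groups did not overlap, and IR+NC-LV replicate 3 was the highest library. The log2 fold change was -0.16 (edgeR adjusted p = 0.482) and -0.08 without that library. The other 3 erasers of H3K4 (KDM1B, KDM5A and KDM5C) had log2 fold changes between -0.06 and -0.05, with overlapping groups.

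Of the H3K4 writers, KMT2A had a log2 fold change of -0.02, which turned to 0.06 without IR+NC-LV replicate 3 and to 0.03 with the length trend removed. KMT2D had 0.03, which turned to -0.16 without IR+PR-LV replicate 1, its highest library at 175 CPM beside 122 CPM in each of the other 2. No direction can be given for either. KMT2A shares 21.1% of its 100-base stretches with another annotated gene, and whether this made its counts uncertain was not tested. The 6 writers of H3K4 lay between -0.10 (KMT2C) and 0.08 (SETD1B).

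H3K27 is written by EZH1 or EZH2, the alternative catalytic subunits of the Polycomb complex PRC2, of which EZH2 is known for its high level in dividing cells. EZH2 measured 115, 109 and 124 CPM in IR+NC-LV and 115, 109 and 112 CPM in IR+PR-LV, with a log2 fold change of -0.06 ± 0.07 (SE, edgeR adjusted p = 0.802). EZH1 measured 34.3, 32.8 and 35.3 CPM in IR+NC-LV and 35.9, 30.3 and 30.1 CPM in IR+PR-LV, with -0.09 ± 0.09 (SE, adjusted p = 0.767). The groups overlapped for both. With single libraries left out, the values ran from -0.10 to -0.005 for EZH2 and from -0.18 to -0.05 for EZH1. On the TPM scale, EZH2 lay above EZH1 in 6 of 6 libraries, by 2.20 to 2.57-fold. The size of this fold depends on the annotated exon lengths, 6776 bases for EZH2 and 4671 for EZH1. The ratio of EZH1 to EZH2 was 0.432, 0.435 and 0.412 in IR+NC-LV and 0.455, 0.404 and 0.388 in IR+PR-LV (0.426 ± 0.0126 and 0.416 ± 0.0346, SD, n = 3, two-sided exact permutation p = 0.6).

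KDM6A (UTX), an eraser of H3K27 that sits in the KMT2C and KMT2D complexes, measured 68.4, 64.7 and 79.9 CPM in IR+NC-LV and 55.1, 62.4 and 60.7 CPM in IR+PR-LV. The groups did not overlap. The log2 fold change was -0.25 ± 0.09 (SE, edgeR unadjusted p = 0.0210, adjusted p = 0.397), and it was -0.16 without IR+NC-LV replicate 3, its highest library (unadjusted p = 0.0723). KDM6B (JMJD3), an eraser of H3K27 that inflammatory and stress signals are known to induce, measured 25.7, 25.0 and 31.0 CPM in IR+NC-LV and 26.4, 21.0 and 22.4 CPM in IR+PR-LV. These groups overlapped, and the log2 fold change was -0.23 (adjusted p = 0.534), or -0.13 without IR+NC-LV replicate 3.

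**Figure D2:**
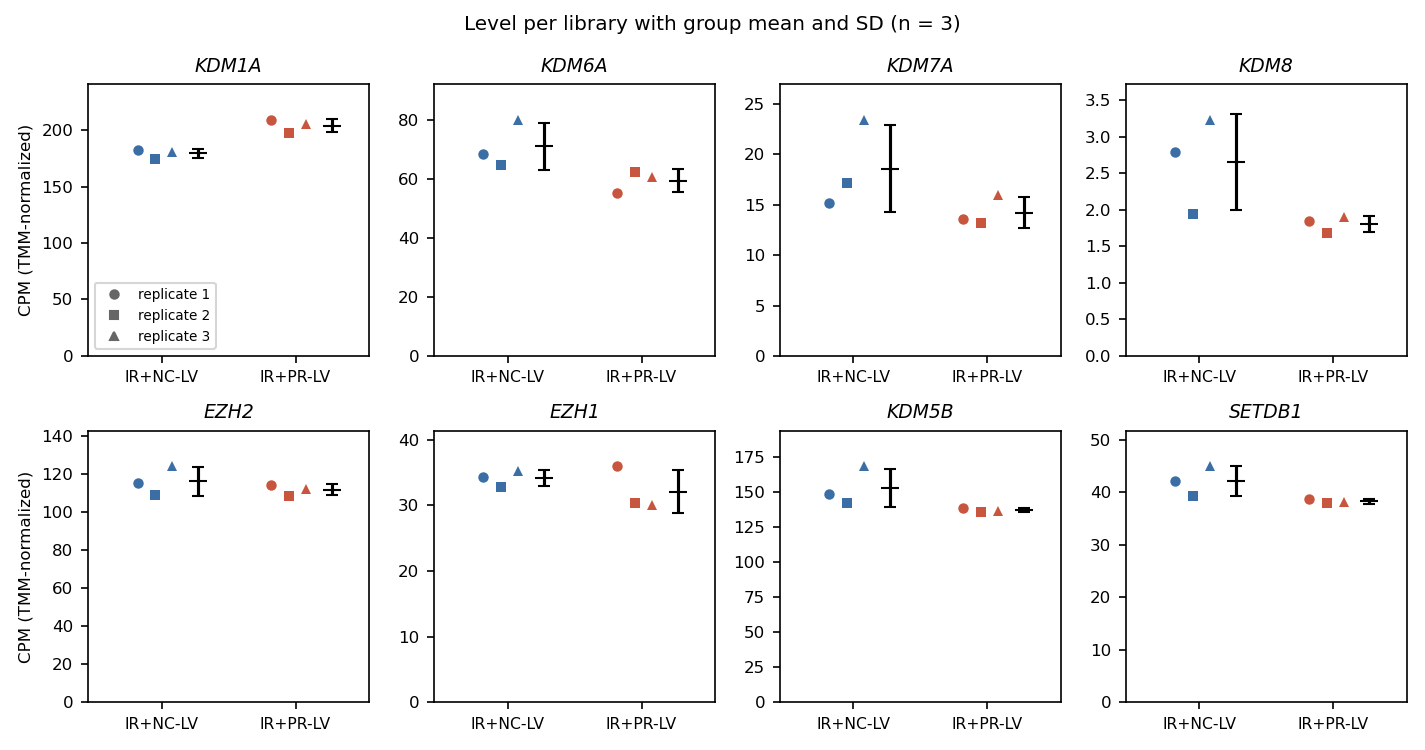
Level of 8 enzyme genes in each library (TMM-normalized CPM, axes from 0), with the replicates by symbol and the group mean and SD at the right (n = 3). KDM1A is higher in each IR+PR-LV library, while IR+NC-LV replicate 3 (triangle) is the highest control for 7 of the 8 genes.

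Of the H3K9 erasers, KDM7A, a JmjC enzyme with a reader domain for H3K4, measured 15.2, 17.2 and 23.4 CPM in IR+NC-LV and 13.6, 13.1 and 15.95 CPM in IR+PR-LV. The groups overlapped, and IR+NC-LV replicate 3 lay far above the other controls. The log2 fold change of -0.38 ± 0.16 (SE, edgeR unadjusted p = 0.0401, adjusted p = 0.450) was -0.19 without that library (unadjusted p = 0.160). KDM7A-DT, its divergent transcript, had 13, 28 and 11 counts in IR+NC-LV and 16, 16 and 20 in IR+PR-LV (log2 fold change -0.23, adjusted p = 0.849). The divergent transcripts KDM2B-DT and PRMT5-DT had 1 to 3 and 0 to 5 counts per library and were not tested. The other 6 tested erasers of H3K9 lay between -0.17 (KDM4D) and 0.10 (KDM4B), each with overlapping groups. KDM4A shares 43% of its 100-base stretches with another annotated gene. In the deposited coordinates, it shares 2.9% of its exon bases with KDM4A-AS1 on the opposite strand. Whether this sharing made its counts uncertain was not tested.

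SUV39H1 and SUV39H2 place the trimethyl mark of heterochromatin on H3K9, and SETDB1 does so at silenced repeats with TRIM28. SUV39H2 measured 44.5, 44.9 and 41.6 CPM in IR+NC-LV and 42.8, 51.1 and 48.5 CPM in IR+PR-LV, with overlapping groups and a log2 fold change of 0.12 (edgeR adjusted p = 0.664). SUV39H1 had 0.07 (adjusted p = 0.859), which turned to -0.06 without IR+PR-LV replicate 1. SETDB1 measured 42.1, 39.3 and 44.9 CPM in IR+NC-LV and 38.8, 38.0 and 38.0 CPM in IR+PR-LV. Its groups did not overlap, and its log2 fold change was -0.14 (adjusted p = 0.562), or -0.09 without IR+NC-LV replicate 3. SETDB2 had -0.32 with a wide 95% interval of -0.73 to 0.09, or -0.18 without IR+NC-LV replicate 3, and 42.2% of its exon bases are shared with the readthrough gene SETDB2-PHF11.

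For H3K36, NSD2, which places the dimethyl mark, measured 226, 222 and 217 CPM in IR+NC-LV and 254, 233 and 233 CPM in IR+PR-LV. The groups did not overlap, and the log2 fold change was 0.11 ± 0.06 (SE, edgeR adjusted p = 0.553), or 0.07 without IR+PR-LV replicate 1. SETD2, the enzyme of the trimethyl mark, had -0.03 (adjusted p = 0.902), which turned to 0.04 without IR+NC-LV replicate 3. The 3 other writers of H3K36 lay between -0.21 (NSD1) and 0.04 (NSD3). NSD1 measured 49.0 CPM in IR+NC-LV replicate 3, beside 39.6 and 36.5 CPM in the other controls and 35.35 to 36.52 CPM in IR+PR-LV. The erasers placed under this mark, KDM2A and KDM2B, had 0.04 and 0.10. DOT1L, the H3K79 methyltransferase, had 0.10 (adjusted p = 0.793), which turned to -0.04 without IR+PR-LV replicate 1, where it measured 80.7 CPM beside 60.2 to 64.4 CPM in all other libraries. KMT5A had 0.06 (adjusted p = 0.774), or 0.02 without IR+PR-LV replicate 1, and shares 11.1% of its 100-base stretches with other annotated genes.

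Of the proteins with a SET or JmjC domain that act mainly outside these marks, KDM8 had the lowest log2 fold change of the members. KDM8 (JMJD5) was first described as an eraser of H3K36 and is now better known as an arginine hydroxylase. Its counts were 47, 41 and 45 in IR+NC-LV and 31, 47 and 35 in IR+PR-LV, which gave 2.80, 1.94 and 3.23 CPM against 1.84, 1.68 and 1.90 CPM. The groups did not overlap, but the lowest control lay within 0.05 CPM of the highest IR+PR-LV library. The log2 fold change was -0.54 ± 0.22 (SE, edgeR unadjusted p = 0.0369, adjusted p = 0.441) and -0.38 without IR+NC-LV replicate 3 (unadjusted p = 0.124), and DESeq2 gave an unadjusted p of 0.111. SETD7, a monomethyltransferase with many substrates, did not overlap between the groups (174.8 to 181 CPM against 186 to 192 CPM, log2 fold change 0.09). SETD4 did not overlap either (27.1 to 30.2 CPM against 25.7 to 26.4 CPM, log2 fold change -0.16). The remaining 5, among them SETD3, which methylates actin, lay between -0.01 and 0.06.

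Among the SMYD genes, SMYD2 had a log2 fold change of 0.08 (edgeR adjusted p = 0.724, and 0.04 without IR+NC-LV replicate 3), and SMYD3, SMYD4 and SMYD5 lay between -0.04 and 0.09. Arginine methyltransferases differed as little. PRMT1 had 0.10 ± 0.08 (SE, adjusted p = 0.698), or 0.04 without IR+NC-LV replicate 3, and the groups overlapped. PRMT5 measured 111, 107 and 113 CPM in IR+NC-LV and 113, 115 and 107 CPM in IR+PR-LV, with 0.02 ± 0.06 (SE, adjusted p = 0.923) and a 95% interval of -0.11 to 0.16. Its value was -0.0035 without IR+NC-LV replicate 2, so it has no direction. PRMT2 measured 115.9, 112.9 and 100.6 CPM in IR+NC-LV and 118.2, 116.5 and 119.3 CPM in IR+PR-LV. Its groups did not overlap, but they lay close together apart from IR+NC-LV replicate 3, the lowest library. Its log2 fold change was 0.10 (edgeR adjusted p = 0.641). PRMT3, PRMT6, PRMT7 and PRMT9 lay between -0.16 and 0.11, and PRMT7 and PRMT9 share 31.7% and 25.9% of their exon bases with genes on the opposite strand.

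By action, 11 of 21 writers of histone marks had a log2 fold change above 0 and 10 below (median 0.0316), and none had an edgeR unadjusted p under 0.05. Of 16 erasers, 4 were above 0 and 12 below (median -0.0576), and 3 (18.8%, against 10.5% of all genes) had an unadjusted p under 0.05 (KDM1A, KDM6A and KDM7A). Over all genes tested, 7839 were above 0 and 7501 below. Without IR+NC-LV replicate 3, the erasers were 8 above and 8 below 0 (median -0.0065), and 1 (KDM1A) had an unadjusted p under 0.05. Without IR+PR-LV replicate 1, the writers were 5 above and 16 below 0 (median -0.0723). The balance within both classes therefore moved with a single library.

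The members deviated together within libraries. IR+NC-LV replicate 3 held the highest value of 26 of 56 members (46.4%, against 24.0% of all genes), and IR+PR-LV replicate 1 of another 18 (32.1%, against 23.6%). Both were the 2 highest libraries for 15 members (26.8%), against 10.8% of all genes. The members' median deviation from the mean of the 6 libraries was 0.09 (log2) in IR+NC-LV replicate 3 and 0.05 in IR+PR-LV replicate 1, and lay between -0.05 and -0.01 in the other libraries.

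These deviations varied with base composition. Across the 56 members, Spearman's rho between the deviation and the GC content of the longest transcript was 0.70 in IR+PR-LV replicate 1 and -0.61 in IR+PR-LV replicate 3, as a description over genes of the same libraries. Over 13871 genes with a known GC content it was 0.53 and -0.51. In IR+NC-LV replicate 3 it was -0.32 across the members and -0.03 over the 13871 genes. Against annotated exon length, the members' rho was 0.39 in IR+NC-LV replicate 3, -0.307 and -0.365 in the other controls and -0.48 in IR+PR-LV replicate 2. Over the 13871 genes, these values were 0.22, -0.097, -0.179 and -0.116. Among the 28 members richer in GC (48.3% to 66.1%), IR+PR-LV replicate 1 was the highest library for 16, whereas among the 28 poorer in GC (34.8% to 48.0%) IR+NC-LV replicate 3 was the highest for 18. The part of GC content and length in the differences of the groups was not tested beyond the fit that removes both trends, in which 9 members (16.1%) had an edgeR unadjusted p under 0.05, against 16.3% of the 13871 genes of that fit, and 0 an adjusted p under 0.05.

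**Figure D3:**
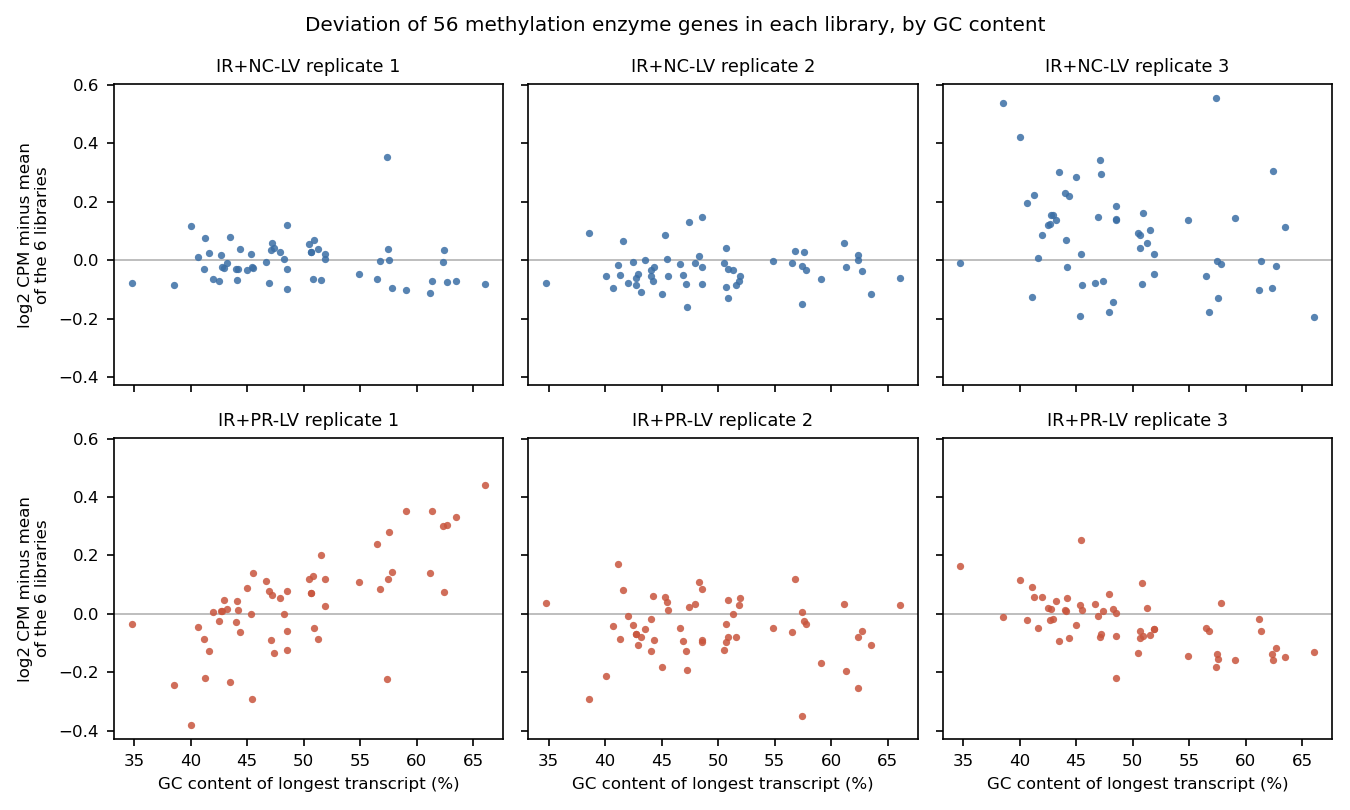
Deviation of each tested enzyme gene from its mean over the 6 libraries (log2 CPM, 1 panel per library) against the GC content of its longest transcript (%). Points rise with GC content in IR+PR-LV replicate 1 (rho 0.70), fall in IR+PR-LV replicate 3 (rho -0.61), and are most scattered upward in IR+NC-LV replicate 3.

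The enzymes work with partners, which were read from 7 lists of 81 genes, 77 of them tested. None had an edgeR adjusted p under 0.05, and 9 had an unadjusted p under 0.05 (11.7%, 4 higher and 5 lower), close to the 10.5% of all genes. Beside KDM1A in the CoREST complex, HDAC2, a histone deacetylase, measured 279, 291 and 266 CPM in IR+NC-LV and 310, 329 and 345 CPM in IR+PR-LV (log2 fold change 0.23, adjusted p = 0.274). RCOR3, a scaffold of the same complex, measured 82.7, 72.5 and 87.9 CPM in IR+NC-LV and 65.8, 63.8 and 68.3 CPM in IR+PR-LV (log2 fold change -0.30, adjusted p = 0.278). The groups overlapped for neither gene, and these partners of KDM1A had opposite signs. Of 9 tested genes of this list, 6 were above 0 and 3 below.

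HSPBAP1, a JmjC protein, had the smallest p of the lists. It measured 16.9, 15.7 and 16.9 CPM in IR+NC-LV and 12.1, 11.7 and 12.8 CPM in IR+PR-LV, without overlap. The log2 fold change was -0.44 ± 0.09 (SE, edgeR unadjusted p = 0.00116, adjusted p = 0.169), between -0.47 and -0.41 with each library left out. Of the 8 tested genes of its list of other JmjC proteins, 1 had an unadjusted p under 0.05.

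Of 14 H3K4 methyltransferase partners, 9 were above 0. PSIP1, which tethers KMT2A to chromatin, had 0.24 (edgeR adjusted p = 0.372), and the core subunit WDR5 had 0.08 (adjusted p = 0.717). Of 10 tested PRC2 partners, 6 were below 0. The histone binder RBBP7 had 0.17 (adjusted p = 0.466, and 0.0978 without IR+NC-LV replicate 3), EED -0.05 (adjusted p = 0.842) and SUZ12 0.04 (adjusted p = 0.883), the last turning to -0.01 without IR+PR-LV replicate 3. Of 12 H3K9 partners and readers, 10 were above 0, with 0 at an unadjusted p under 0.05. EHMT1, which dimethylates H3K9 with EHMT2, had 0.13 (adjusted p = 0.651), or 0.03 without IR+PR-LV replicate 1. EHMT2 is listed in 7 copies. The copy with the highest count in the list had 0.81 (adjusted p = 0.482, and 0.44 without IR+PR-LV replicate 1), and the sum of the copies had 0.21 (adjusted p = 0.890).

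Of 10 arginine methylation partners, 8 were above 0. CARM1, itself a type I arginine methyltransferase, had 0.16 (edgeR adjusted p = 0.557, and 0.07 without IR+PR-LV replicate 1), CLNS1A, which brings substrates to PRMT5, had 0.20 (adjusted p = 0.416), and BTG1, which binds PRMT1, had -0.26 (adjusted p = 0.365, and -0.16 without IR+NC-LV replicate 3). Genes that supply and recycle the methyl donor were 7 above and 7 below 0. MAT2A, which makes S-adenosylmethionine, measured 329, 314 and 273 CPM in IR+NC-LV and 307, 319 and 335 CPM in IR+PR-LV (log2 fold change 0.07, adjusted p = 0.793, and -0.003 without IR+NC-LV replicate 3). SHMT2, the mitochondrial serine hydroxymethyltransferase, measured 220, 213 and 233 CPM against 195, 193 and 185 CPM, without overlap (log2 fold change -0.22, adjusted p = 0.272). SHMT1, its cytosolic counterpart, is listed in 2 copies. The copy on chromosome 17 measured 17.6, 26.0 and 4.17 CPM in IR+NC-LV and 2.32, 10.2 and 4.29 CPM in IR+PR-LV, an overlapping pattern with a log2 fold change of -1.48 (adjusted p = 0.448), -0.93 without IR+NC-LV replicate 2 and -2.28 without IR+PR-LV replicate 2.

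Since several enzymes (EZH2, KMT5A and SUV39H1 among them) are known to follow cell division, 24 proliferation genes were read beside them. Of these, 14 were above 0 and 10 below (median 0.0314), 0 had an edgeR adjusted p under 0.05, and 1 had an unadjusted p under 0.05 (PCNA, log2 fold change 0.19, adjusted p = 0.372). MKI67 measured 515, 507 and 542 CPM in IR+NC-LV and 537, 471 and 487 CPM in IR+PR-LV (log2 fold change -0.07, adjusted p = 0.769). On the TPM scale it lay between 113.5 and 143 in the 6 libraries.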

How the data were processed

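RNA-seq was compared between irradiated HK-2 cells with control (IR+NC-LV, n = 3) and PRDM16 (IR+PR-LV, n = 3) lentivirus. Per the study's methods, poly(A) RNA was sequenced from both ends on an MGI instrument. The authors deposited raw read counts per gene beside TPM and FPKM values. Each deposited TPM and FPKM value was checked and equals the count scaled by exon length and total, to within 2e-11. The submitters' processing notes name CASAVA, featureCounts 2.0.1, DESeq2 1.16.1 and hg38. The aligner, the annotation and the strand setting are not given in the sources used here. The labelled library kit is named without a strand-specific variant.

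Counts were tested with edgeR 4.0.16 in R 4.3.3 (filterByExpr at its defaults, 10 counts and 15 in total, TMM normalization, quasi-likelihood test, no covariates), with Benjamini-Hochberg adjustment over 15340 genes and gene copies and a threshold of 0.05. The biological coefficient of variation was 0.106. DESeq2 1.42.0 was an alternative. Standard errors came from the F statistic, and CPM values are TMM-normalized. The deviations of libraries used log2 CPM with 0.1 added. The procedure was also run on simulated counts. These held no trend with GC content or length, so that run does not cover the trends seen in these libraries.

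The members, roles, gene lists and tests were chosen with earlier results of these data known, so lists are described by counts and medians only. Named were members with an unadjusted p under 0.05, the 5 highest and 3 lowest by TPM, 17 members fixed by name, in each partner list up to 2 genes with the smallest unadjusted p under 0.05, and 8 fixed partner genes. Members whose groups did not overlap were also named, after their values were seen. GC content came from GENCODE release 29 transcripts (90.4% of tested genes) and exon overlaps from the deposited coordinates. Same-numbered libraries of the groups had correlations of -0.01, 0.05 and 0.07 between their deviations, so numbers were not taken as pairs. No pair of libraries agreed within sampling noise (chi-square of 3.59 or more per gene within groups).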

Additional observations from a re-analysis of the deposited data

How the results depend on the processing

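No member had an adjusted p under 0.05 under any alternative: RLE or upper-quartile normalization, DESeq2, no filter, a minimum of 10 counts per library, the replicate block, each library left out, summed copies, GC and length corrections, robust estimation and thinning to the smallest library. The smallest adjusted p of a member was 0.0968 (KDM1A, GC and length trend removed). The count of genes past the threshold was 10 and moved to 168 with DESeq2, 342 without the filter, 46 with GC and length trend removed, 42 with robust estimation and 58 at an adjusted p under 0.10. Leaving out single libraries gave 1 to 28 such genes: 1 when control replicate 1 or replicate 3 of IR+PR-LV was dropped, 28 when control replicate 2 was and 16 when control replicate 3 was. With the replicate block it was 3, a block that only shares numbers, and no member was called (smallest adjusted p = 0.343, KDM7A). PRDM16 kept its direction in every fit, but its log2 fold change lost the threshold at 3.17 with DESeq2 (no adjusted p), 3.09 with the replicate block (adjusted p = 0.0567), 3.05 with GC and length trend removed (0.0897) and 3.41 after thinning (0.0536), and ranged from 2.35 (without IR+NC-LV replicate 2, adjusted p = 0.054, also a lost call) to 3.91 with each library left out. The sign of KMT2A turned to 0.0345 with the length trend removed, 0.041 with GC and length trend removed and 0.0200 after thinning. With each library left out, log2 fold changes crossed 0 for KMT2A (-0.0629 to 0.0594), KMT2D (-0.16 to 0.12), PRMT5 (-0.0035 to 0.0510), SUV39H1 (-0.0561 to 0.161), SETD2 (-0.0861 to 0.0407), DOT1L (-0.0433 to 0.173), SUZ12 (-0.0133 to 0.119) and MAT2A (-0.0030 to 0.123). SHMT1 passed the threshold without the filter (adjusted p = 0.000897). The causes were not tested. The 95% intervals of KDM8, KDM7A, KDM4D, SETDB2 and KMT5C reached beyond 0.5 on the log2 scale, so larger changes of these could have been missed.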
